A study of Mus musculus with 12 samples.

Results

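The ventral tegmental area (VTA) of mice at 10 months of age was compared with that of mice at 2 months, using 8 of the 12 arrays of the series, 4 for each age, chosen by the age and replicate given in their titles. All animals were wild type mice of the strain labelled C57 (C57BL/6 in the methods) without any treatment, so the groups differed by age alone as far as the labels show. The methods do not state the sex of the mice pooled for the arrays. Per the methods each array held RNA from the VTA of 5 mice, dissected by hand and pooled, and the replicate is therefore a pool and not a single mouse. The other 4 arrays, from mice of 18 months, entered the fit for a shared estimate of the spread. Expression was measured on Affymetrix mouse arrays and is given as log2 RMA values (normalised, background-corrected probe signals summarised per probe set), and a change is the mean at 10 months minus the mean at 2 months on that scale. The comparison addresses which genes of the VTA differ between young and middle-aged adult mice.

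The VTA lies in the ventral midbrain, and its dopaminergic neurons project to the nucleus accumbens and the prefrontal cortex, where dopamine acts in reward, motivation and learning. These neurons make dopamine from tyrosine through tyrosine hydroxylase (Th) and aromatic amino acid decarboxylase (Ddc), load it into vesicles through the transporter Slc18a2 and take it back up through the transporter Slc6a3. GABAergic and glutamatergic neurons, astrocytes, oligodendrocytes, microglia and vessels lie among them, and all of these contribute RNA to a dissected VTA. In such whole tissue, fewer cells of a type and less RNA per cell cannot be told apart.

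The arrays carried the genes that define the tissue. Over the 7 samples used here, Th ran from 12.68 to 14.01, Slc6a3 from 13.84 to 14.08, Ddc from 13.74 to 14.16 and Calb1, a calcium-binding protein of VTA neurons, from 11.93 to 12.98. Markers of neighbouring sites varied from pool to pool. Tph2, the serotonin-synthesising enzyme of raphe neurons, lay at 7.02, 9.79 and 7.09 at 2 months and at 5.37, 8.32, 5.69 and 5.06 at 10 months (−1.86 ± 0.86 SE, adjusted p = 0.327 by limma). Array 2 was the highest of each age, and the 10 months array 2 overlapped with the 2 months samples. Ttr, made mainly by the choroid plexus, lay at 9.92, 7.29 and 7.64 at 2 months and at 6.2, 7.03, 8.64 and 6.01 at 10 months (−1.31 ± 0.70 SE, adjusted p = 0.408), again with overlap. Of the 6 measured markers of cortex and hippocampus none was called, but their summed level lay within 10.57 to 10.73 in young pools and within 9.99 to 10.38 in older ones. The part of such neighbouring tissue in the results below was not tested.

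Several arrays stood apart from their group. The 2 months arrays 3 and 4 correlated at 0.998 over all probe sets and differed by more than 1 on the log2 scale in 1 probe set, where the 5 other pairs at 2 months differed so in 123 to 870 probe sets. They differed by less than the spread between other replicates and were counted as 1 sample, their mean, which left n = 3 at 2 months and n = 4 at 10 months. Counts with all 12 arrays kept separate are given beside the main ones. These same arrays were as close to the 10 months arrays 1, 2 and 4 (correlations of 0.990 to 0.994) as to the 2 months arrays 1 and 2 (0.988 to 0.994). The 10 months array 3 was the least like its group, as pairs at 10 months correlated at 0.967 to 0.996. The first principal component of the 8 arrays held 47.4% of the variance, with the 10 months array 3 (75) and the 2 months array 2 (45.0) at its upper end. The summed level of 6 measured sex-linked genes was also highest on these arrays (12.28 and 12.03, against at most 11.49 in the other samples). Whether the pools differed in sex was not tested. Age was separated on the second component, which held 29.6%, with all 2 months arrays between 14.8 and 52.7 and all 10 months arrays between −41.8 and −9.13.

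The control probe sets of the arrays moved with age as well. For the housekeeping genes Actb and Gapdh the 3′ minus 5′ signal, which grows when the labelled RNA reaches less far from the 3′ end of the transcript, averaged 3.47 ± 0.17 (SD, n = 3) in the young pools and 2.15 ± 0.34 (SD, n = 4) in the older ones. The highest value at 10 months, 2.44, lay below the lowest at 2 months, 3.29 (two-sided exact permutation p = 0.0286, the smallest that 3 against 4 samples allow, and adjusted p = 0.0571 over 4 measures). The probe sets for poly-A control RNAs also did not overlap, at 5.75 ± 0.08 (SD, n = 3) in young and 6.03 ± 0.08 (SD, n = 4) in older pools (p = 0.0286 by the same exact test, 0.0571 after adjustment). On each array compared their mean lay below the median of all probe sets (6.115 to 6.211), and the methods do not say that such RNAs were added. Whether these values are more than background was not tested. The hybridisation controls (11.4 ± 0.37 SD, n = 3, against 10.7 ± 0.85 SD, n = 4, exact permutation p = 0.286) and the 18S ribosomal RNA probe sets (13.4 ± 0.05 SD, n = 3, against 13.2 ± 0.23 SD, n = 4, exact permutation p = 0.400) overlapped between the ages. Every gene called below therefore moved together with this 3′ to 5′ difference, and age and the difference cannot be told apart in these arrays.

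**Figure D1:**
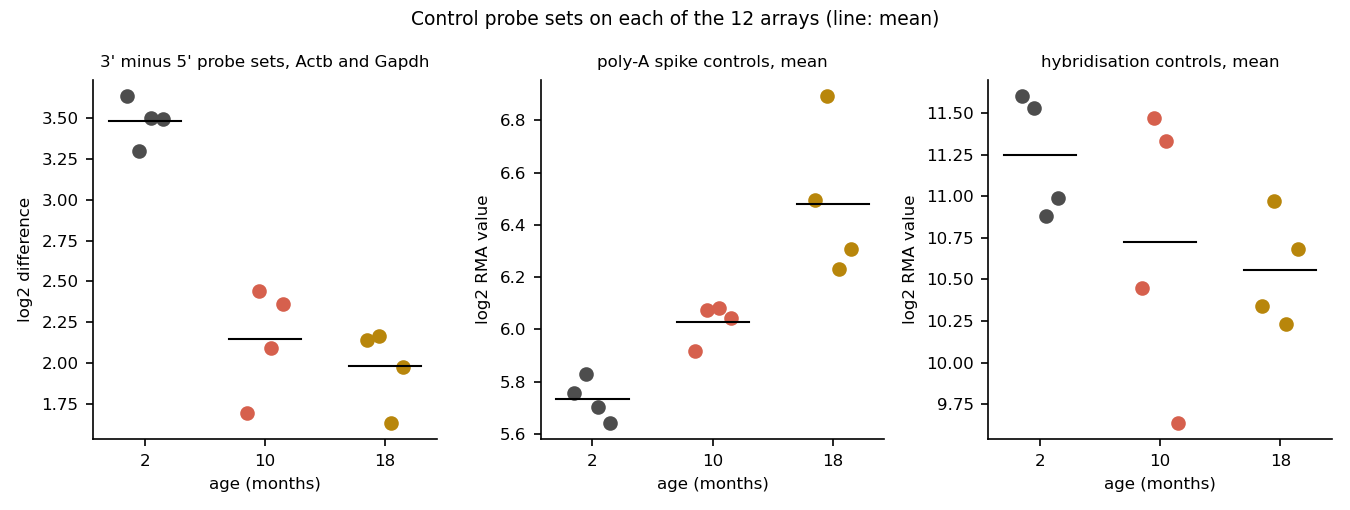
Control probe sets on each of the 12 arrays against age in months: the 3′ minus 5′ log2 difference of Actb and Gapdh, the averaged signal of the poly-A control probe sets (log2) and the averaged hybridisation signal (log2). Points are arrays and lines are means, and the 3′ minus 5′ difference at 10 months stays at or below 2.44 where no 2 months array lies below 3.29.

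Taking each of 18193 genes at its brightest probe set, 182 were called higher at 10 months (1.0% of the genes tested) and 88 lower (0.484%), at an adjusted p under 0.05 by limma with Benjamini-Hochberg adjustment and a change above 1.3-fold. Over all probe sets, 613 of 45037 were called (1.36%), 377 higher and 236 lower, in 519 named genes, and 155 of them changed more than 2-fold. With the 12 arrays kept separate 977 were called (2.17%), 590 higher and 387 lower, and 599 probe sets were called under both choices. The median change of the genes called higher was 0.79 and that of the genes called lower −0.70, against 0.02 for all genes. The 2 months and 10 months samples did not overlap in 612 of the 613 called probe sets, and in 12.6% of all probe sets tested. Each count of called list members below stands against the shares of all genes, 1.0% higher and 0.484% lower.

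Most of these calls lay close to the threshold and depended on single pools. The median adjusted p of the 613 called probe sets was 0.0418. With the samples of 18 months left out of the fit no probe set was called by limma, although 6288 had an unadjusted p under 0.05. Without the 2 months array 1 the count was 1, without the 2 months array 2 it was 3, without the 10 months array 1 or 4 it was 3 each time, and without the 10 months array 3 it was 1256. The excess of rises was nearly gone without the 10 months array 3 (629 higher and 627 lower). It stayed without the 10 months array 2 (421 and 214), the 2 months array 3 (342 and 183) or 4 (455 and 316), or any 18 months array. Where 3 or fewer were called, as without the 2 months array 2 (1 higher and 2 lower), the direction cannot be read. With that 3′ minus 5′ signal added as a covariate the count was 0 (1919 at an unadjusted p under 0.05). As the signal did not overlap between the 2 ages, a fit that holds both cannot set them apart. Its estimates also spread more widely, with a largest change of 4.82 against 1.92 in the main fit. The values given below with this covariate therefore do not show whether a change belongs to age or to the signal.

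**Figure D2:**
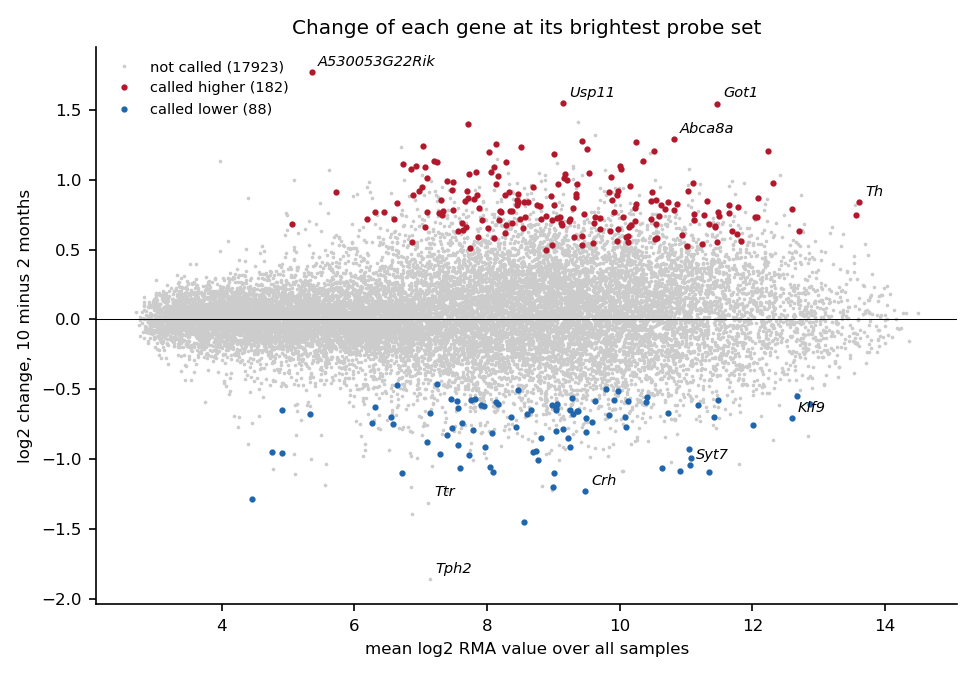
Log2 change from 2 to 10 months of each gene at its brightest probe set, against its mean log2 RMA value over all samples. Red and blue points are the 182 genes called higher and the 88 called lower, grey points the 17923 that were not called, among them Tph2 and Ttr with large changes that varied between pools.

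The change that held best was that of Abca8a, a lipid transporter of the ATP-binding cassette family. Its values were 9.75, 9.65 and 9.93 at 2 months (arrays 1, 2 and the mean of 3 and 4, the order used throughout) and 11.04, 11.06, 11.20 and 10.96 at 10 months (arrays 1 to 4). The groups were separated by more than 1 on the log2 scale, and the change of 1.29 ± 0.10 (SE, 2.45-fold) had an adjusted p of 0.00232 (limma), the smallest of the comparison. Abca8a was called in 19 of 21 other settings, with changes from 1.20 to 1.34, and was not called with the 2 and 10 months samples alone (adjusted p = 0.0636) or with the 3′ minus 5′ covariate (1.33, adjusted p = 0.888). Capn3 and Foxp1 were also called in several of the settings that left few calls, and are named here for that reason, after their values were seen. Capn3, a calcium-dependent protease, lay at 5.20, 5.14 and 5.16 and then at 6.59, 6.13, 6.39 and 6.25 (1.17 ± 0.12 SE, adjusted p = 0.00718). Foxp1, a forkhead transcription factor, lay at 9.02, 8.74 and 8.79 and then at 7.56, 7.64, 7.49 and 7.88 at 1 of its probe sets (−1.21 ± 0.12 SE, adjusted p = 0.00665). Neither overlapped between the ages, but other probe sets of both genes moved less, by 0.38 for Capn3 and by −0.11 at the brightest of Foxp1.

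Among genes of dopamine synthesis and breakdown Th and Maob rose, while Ddc, Slc6a3 and Slc18a2 were not called. Of the 21 measured genes of dopaminergic identity 1 was called higher and none lower, with a median change of 0.17 (0.115 without the 2 months array 2) against 0.02 for all genes. Th lay at 12.68, 12.99 and 13.33 at 2 months and at 14.01, 13.81, 13.78 and 13.75 at 10 months. All 10 months pools were above all 2 months pools, by 0.84 ± 0.14 on average (SE, 1.79-fold, adjusted p = 0.0307, limma). Ddc lay at 13.74, 13.85 and 13.90 and then at 14.12, 13.99, 14.16 and 14.00 (0.24 ± 0.10 SE, adjusted p = 0.253). The groups of Ddc did not overlap but it was not called, and a dimmer probe set of it had a change of −0.34. The dopamine transporter Slc6a3 (0.10 ± 0.09 SE, adjusted p = 0.684) and the vesicular transporter Slc18a2 (0.32 ± 0.29 SE, adjusted p = 0.683) overlapped between the ages. In every sample Ddc and Slc6a3 lay at or above percentile 99.8 of all probe sets, where RMA compresses changes.

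Maob, the enzyme that breaks down dopamine in glia, rose from 8.80, 8.99 and 9.26 to 9.68, 9.84, 9.51 and 9.80 (0.69 ± 0.15 SE, 1.61-fold, adjusted p = 0.0492). With Th it made 2 of the 19 genes of dopamine synthesis, breakdown and receptors called higher (10.5%, against 1.0% of all genes). The transcription factors that keep dopaminergic identity were not called. Foxa2 came nearest, with a change of −0.58 ± 0.15 SE and no overlap (adjusted p = 0.0741), and it was called lower with the 12 arrays kept separate (adjusted p = 0.0463). Nr4a2 had a change of −0.46 and Pitx3 of 0.26, both with overlap. Neither the 11 VTA-enriched nor the 9 substantia nigra-enriched dopaminergic genes held a called member, with medians of 0.16 for both. These medians rested on single arrays: leaving out one array took the VTA-enriched one to between 0.00309 (without the 2 months array 1) and 0.165, and the other to between 0.083 (without the 10 months array 1) and 0.217. The summed level of the dopaminergic identity genes, Th itself among them, lay within 16.24 to 16.42 in young pools and 16.43 to 16.65 in older ones. The mean difference was 0.25, without overlap. Sums of other lists did not overlap either, such as that of the astrocyte genes (16.0 to 16.06, then 16.07 to 16.27). As Th is part of the sum, the sum cannot set its rise apart from that of the other genes. Whether the rise of Th goes beyond theirs was not tested.

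The start regions of Th, Got1 and Klf9, called genes with a role in dopamine, aspartate metabolism and the glucocorticoid response, are shown for the motifs they hold. Each is the 250 bases before the annotated start, from RefSeq on GRCm38.p6 and read 5′ to 3′ on the strand of the gene, with motifs, searched on both strands, in capitals. The cyclic AMP response element (CRE) was searched as TGACGTCA, the GC box as GGGCGG, the TATA box as TATAAA, and the CCAAT box as the letters of its name. Th lies on the minus strand at chr7:142899996-142900245, Got1 on the minus strand at chr19:43524606-43524855 and Klf9 on the plus strand at chr19:23140976-23141225.
Th: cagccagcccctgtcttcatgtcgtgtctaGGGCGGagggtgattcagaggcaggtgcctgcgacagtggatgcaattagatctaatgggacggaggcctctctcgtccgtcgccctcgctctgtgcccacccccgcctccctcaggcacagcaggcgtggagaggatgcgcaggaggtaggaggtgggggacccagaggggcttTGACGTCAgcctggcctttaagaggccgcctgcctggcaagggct
Got1: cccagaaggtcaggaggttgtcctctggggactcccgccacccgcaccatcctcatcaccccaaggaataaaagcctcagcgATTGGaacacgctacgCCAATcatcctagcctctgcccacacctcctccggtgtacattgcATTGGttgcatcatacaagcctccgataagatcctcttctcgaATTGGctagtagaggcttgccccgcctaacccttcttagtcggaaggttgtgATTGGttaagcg
Klf9: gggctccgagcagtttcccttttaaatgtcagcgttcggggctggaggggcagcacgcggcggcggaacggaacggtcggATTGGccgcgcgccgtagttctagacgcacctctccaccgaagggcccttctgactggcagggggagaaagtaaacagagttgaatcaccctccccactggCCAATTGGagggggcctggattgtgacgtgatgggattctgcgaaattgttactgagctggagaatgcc
Th holds a CRE that begins 45 bases before the start and a GC box 220 bases before it. Got1 holds 5 CCAAT boxes and Klf9 holds 3, of which the pair nearest the start overlap on opposite strands. The same window of Abca8a holds none of these motifs.

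Among all called genes a window was found for 143 of the 182 genes called higher, 72 of the 88 called lower and 14452 of all 18193 genes. The median G+C share was 55.6% for genes called higher, 60.0% for genes called lower and 57.6% for all. A CRE, on either strand, lay in 2.10% of the windows of genes called higher (3 genes: Th, Dctn3 and Ttc1), 1.39% of those called lower (Atxn1l) and 2.27% of all. CCAAT boxes lay in 36.4%, 29.2% and 35.7% respectively, GC boxes in 52.4%, 55.6% and 49.9%, and TATA boxes in 6.99%, 8.33% and 9.02%. These shares are descriptions of letters in a window and were not tested.

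Most microglial and MHC class I genes had higher values at 10 months. Of 20 measured microglial genes, 19 had a change above 0 and the median change was 0.50, against 54.3% of genes above 0 and a median of 0.02 overall. The purinergic receptors P2ry12 and P2ry13, by which resting microglia sense nucleotides, were called higher (10% of the list, against 1.0% of all genes). No member was called lower. P2ry13 lay at 7.16, 7.41 and 7.53 and then at 8.10, 8.12, 7.96 and 8.14 (0.71 ± 0.12 SE, adjusted p = 0.0307), with no overlap. P2ry12 lay at 6.63, 6.92 and 7.09 and then at 8.28, 7.27, 8.39 and 7.80 (1.05 ± 0.23 SE, adjusted p = 0.0496), just past the threshold and with a wide spread at 10 months. Cx3cr1, the fractalkine receptor of microglia, overlapped between the ages (0.13 ± 0.20 SE, adjusted p = 0.83) and had a change of −0.04 without the 10 months array 3. The summed level of the microglial genes also overlapped, 13.97 to 14.16 in young against 14.04 to 14.66 in older pools.

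Of 15 measured genes of activated microglia 3 were called higher (20%, against 1.0% of all genes) and none lower. The median change was 0.42 (0.214 and no call without the 2 months array 2). Itgb2, a leukocyte integrin subunit, lay at 6.01, 6.66 and 6.93 and then within 7.49 to 7.58 (0.99 ± 0.19 SE, adjusted p = 0.0389). Lyz2, a lysozyme of myeloid cells, rose by 0.86 ± 0.18 SE (adjusted p = 0.0478), and Apoe, a lipid carrier of astrocytes and activated microglia, by 0.75 ± 0.14 SE (adjusted p = 0.0396). Clec7a, a receptor of myeloid cells, had a change of 0.72 and was not called (adjusted p = 0.14). The summed level of this list did not overlap, 13.17 to 13.59 in young against 13.86 to 14.12 in older pools, although Apoe is also an astrocyte gene and its brightest member.

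B2m, which pairs with the heavy chains of MHC class I, rose at 2 probe sets. The brighter lay at 10.07, 9.95 and 10.43 and then at 11.07, 11.06, 10.83 and 10.96 (0.83 ± 0.13 SE, adjusted p = 0.0301), and the other changed by 0.97 (adjusted p = 0.0232). All 10 measured genes of MHC class I presentation had a change above 0, with a median of 0.31, but B2m alone was called, and the heavy chains H2-K1 (0.86) and H2-D1 (0.91) came short (adjusted p of 0.0577 and 0.0604) but were called with the 12 arrays kept separate (0.0491 and 0.0412). Of 13 complement genes Cd59a, a membrane inhibitor of complement, was called higher (0.70 ± 0.14 SE, adjusted p = 0.0420). C1qa had a change of 1.04 and was not called. No gene was called among 6 of MHC class II or 16 of the interferon response.

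Of the 61 genes in the aged-brain signature of the study, which it compiled from published arrays of older mouse brains, 50 were measured here, of which 7 were called higher (14.0%, against 1.0% of all genes) and none lower, with a median change of 0.42. They were Abca8a, Anln, B2m, Ctsz, Il33, Itgb2 and Pmp22. The list was taken up here with earlier results of these arrays known. Anln, a cytoskeletal scaffold that oligodendrocytes use in myelin, lay at 10.06, 10.23 and 10.63 and then at 11.37, 11.18, 11.43 and 11.14 (0.97 ± 0.14 SE, adjusted p = 0.0249). The alarmin Il33 (0.67 ± 0.15 SE, adjusted p = 0.0492) and the myelin protein Pmp22 (0.56 ± 0.11 SE, adjusted p = 0.0396) rose less. Neither Anln nor Il33 overlapped between the ages, while Gfap, the astrocyte filament often raised in aged brain, was not called (0.07 ± 0.41 SE, adjusted p = 0.966) and its sign turned to −0.31 without the 10 months array 2. Dimmer probe sets of Gfap changed by 0.39 and 0.32 and a dimmer probe set of Anln by 0.09, none of them called.

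**Figure D3:**
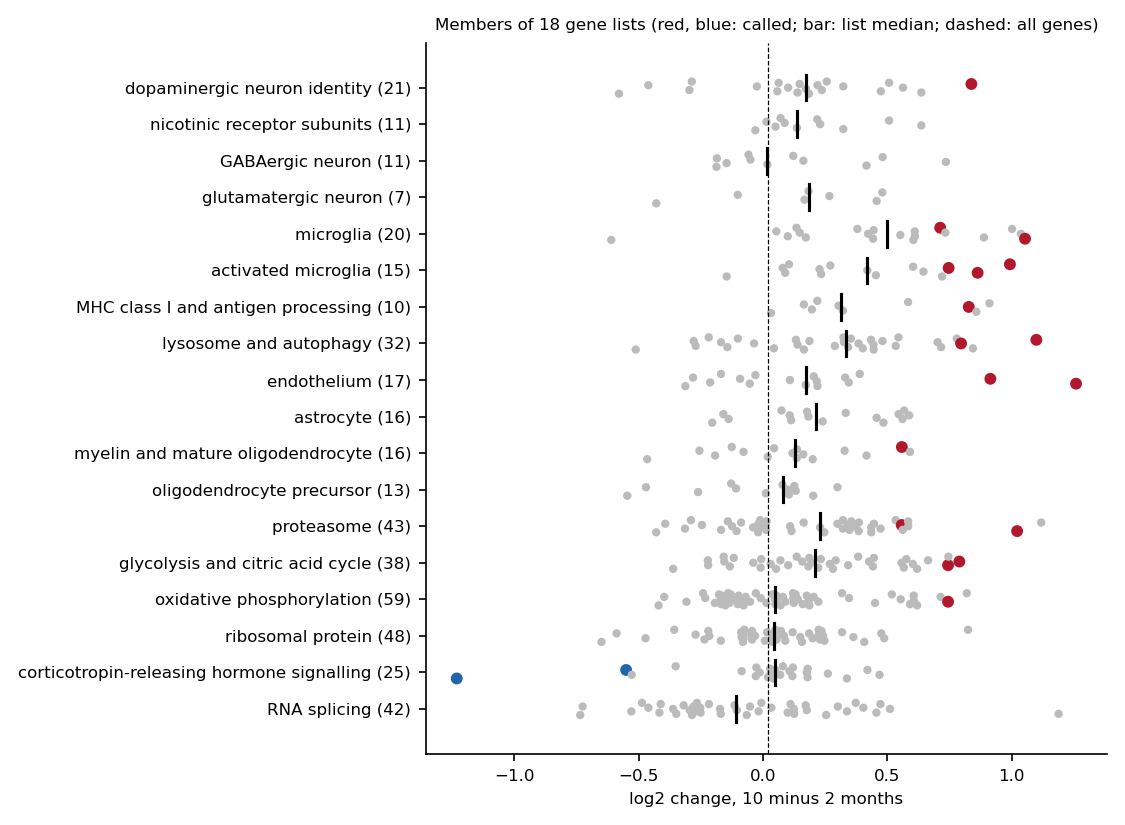
Log2 change from 2 to 10 months of the members of 18 gene lists, with the number of measured genes in brackets. Each point is a gene, red or blue where it was called, bars are list medians and the dashed line is the median of all genes (0.02), with microglia (0.50) and activated microglia (0.42) farthest above it among the lists drawn, which leave out the aged-brain signature.

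The lysosome and autophagy list had 2 called of 32, Ctsz and Gusb, both higher, with a median of 0.33 (−0.01 with the 3′ minus 5′ covariate). The cathepsin Ctsz lay at 8.84, 9.40 and 9.29 and then at 10.47, 10.42, 10.02 and 10.20 (1.10 ± 0.19 SE, adjusted p = 0.0340), and a second probe set of it was called with a change of 1.06. Gusb, the lysosomal beta-glucuronidase, rose by 0.80 ± 0.16 SE (adjusted p = 0.0466). Of 43 proteasome genes the subunits Psmc3 (0.56 ± 0.12 SE, adjusted p = 0.0496) and Psmd8 (1.02 ± 0.21 SE, adjusted p = 0.0448) were called higher (4.65%, against 1.0% of all genes). The median of that list was 0.23 (0.116 without the 2 months array 1).

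Usp11, a deubiquitinase, had one of the largest rises of all. It lay at 7.5, 8.02 and 8.12 at 2 months and at 10.01, 8.72, 9.45 and 9.51 at 10 months (1.55 ± 0.32 SE, 2.92-fold, adjusted p = 0.0482). The groups did not overlap, but the 10 months pools spread by more than 1 on the log2 scale, and with the 3′ minus 5′ covariate the change turned to −0.23. Of 42 ubiquitin-specific proteases Usp4 (0.73 ± 0.14 SE, adjusted p = 0.0408) and Usp8 (0.97 ± 0.21 SE, adjusted p = 0.0492) were called too. This made 7.14% of the list higher, against 1.0% of all genes. None was called lower, and the median of the list was 0.03. Dimmer probe sets of Usp4 (−0.19) and Usp8 (−0.49) had changes in the opposite direction.

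In energy metabolism Got1, the cytosolic aspartate aminotransferase of the malate-aspartate shuttle, rose 2.92-fold. Its values of 9.70, 10.35 and 10.54 at 2 months and 12.19, 11.20, 12.02 and 11.56 at 10 months did not overlap (1.54 ± 0.25 SE, adjusted p = 0.0297). It was the single called gene of 7 in that shuttle, whose median of 0.29 dropped to 0.0018 once the covariate for the 3′ minus 5′ signal was added. Of 38 genes of glycolysis and the citric acid cycle the phosphofructokinase Pfkm (0.79 ± 0.16 SE, adjusted p = 0.0461) and the succinate dehydrogenase subunit Sdhd (0.74 ± 0.14 SE, adjusted p = 0.0408) were called higher (5.26%, against 1.0% of all genes). The median of these genes was 0.21 (0.0577 with the covariate). A second probe set of Sdhd had a change of −0.35. Sdhd was also the one called gene of 59 in oxidative phosphorylation, whose median was 0.05 (−0.013 to 0.149 with single arrays left out). Fdps, which makes farnesyl diphosphate on the way to cholesterol, rose by 1.23 ± 0.20 SE (adjusted p = 0.0312), while the 19 genes of cholesterol synthesis had a median of −0.05.

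Of 17 endothelial genes 2 were called higher (11.8%, against 1.0% of all genes), both surface sialomucins of vessels. Cd34 lay at 6.80, 7.11 and 7.56 and then at 8.32, 8.42, 8.54 and 8.38 (1.26 ± 0.15 SE, 2.39-fold, adjusted p = 0.0216). Emcn lay at 4.68, 5.06 and 5.29 and then at 6.07, 5.84, 5.86 and 5.93 (0.91 ± 0.15 SE, adjusted p = 0.0302). Neither overlapped between the ages. The tight junction gene Cldn5 was not called (0.39 ± 0.20 SE, adjusted p = 0.377), Pecam1 had a change of 0.17 and Cdh5 of −0.17, and the summed level of the endothelial genes overlapped, 13.02 to 13.34 in young against 13.04 to 13.37 in older pools. Prelp, a matrix proteoglycan, rose by 1.24 ± 0.27 SE (adjusted p = 0.0492) as the single called gene of 14 markers of meninges and fibroblasts.

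Markers of the other cell classes gave few calls. No gene was called among 16 of astrocytes (median 0.21), 13 of oligodendrocyte precursors (0.08), 11 of GABAergic neurons (0.02) or 7 of glutamatergic neurons (0.18). Gad1, which makes GABA, had a change of 0.12 ± 0.17 SE (adjusted p = 0.817, −0.01 without the 10 months array 3), and Slc17a6, the vesicular glutamate transporter of midbrain neurons, of 0.18 ± 0.23 SE (adjusted p = 0.791). Mbp, the main myelin basic protein, lay between 14.39 and 14.56 in all 7 samples. Serpina3n, a protease inhibitor of reactive astrocytes, was called higher (1.05 ± 0.21 SE, adjusted p = 0.0442) as 1 of 14 reactive astrocyte genes. None of 11 nicotinic receptor subunits was called, although Chrnb3 (0.64) and Chrna6 (0.51), subunits of the receptors on dopaminergic neurons, had the largest changes of that list.

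Crh, the precursor of corticotropin-releasing hormone, a stress peptide, was among the genes of largest fall. It lay at 10.41, 10.47 and 9.94 at 2 months and at 8.47, 9.45, 9.27 and 8.97 at 10 months (−1.23 ± 0.26 SE, 0.426-fold, adjusted p = 0.0480), with no overlap. It was the one called of 23 neuropeptide precursors. Its receptor Crhr1 did not move at the brightest probe set (−0.01 ± 0.13 SE, adjusted p = 0.982), with a sign that turned under median centring (0.04), and a dimmer probe set of it had a change of 0.98 (adjusted p = 0.0751). Of 25 genes of Crh signalling, a list that includes Crh itself and the related urocortins, the catalytic subunit of protein kinase A, Prkaca, was called lower too (−0.55 ± 0.12 SE, adjusted p = 0.0492), and the median was 0.05. A second probe set of Prkaca had a change of 0.15. Adcyap1r1, the receptor of the peptide PACAP, rose by 0.76 ± 0.14 SE (adjusted p = 0.0399), and its other probe sets changed by 0.15 and −0.38.

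Klf9, a transcription factor that glucocorticoids induce, fell from 13.20, 13.39 and 13.02 to 12.52, 12.55, 12.48 and 12.42 (−0.71 ± 0.12 SE, adjusted p = 0.0328). The groups did not overlap, yet other probe sets of Klf9 at similar signal had changes of 0.08 and −0.62 (neither called). It was the one called gene of 16 in the glucocorticoid response, whose median was −0.04. Jund, a subunit of the AP-1 transcription factor, fell by 0.52 (−0.52 ± 0.09 SE, adjusted p = 0.0359) as 1 of 16 immediate early genes. Arntl, the activating subunit of the circadian clock, rose by 0.87 ± 0.14 SE (adjusted p = 0.0307) as 1 of 18 clock genes. The time of day of dissection is not in the labels.

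Syt7, a slow calcium sensor of synaptic vesicle release, lay at 12.09, 11.80 and 11.75 and then within 10.78 to 10.87 (−1.04 ± 0.18 SE, adjusted p = 0.0315). It was the one called of 28 synaptic vesicle genes, and its other probe sets changed by −0.04 to −0.24. Marcksl1, an actin-regulating protein of growing neurons, fell at 3 probe sets, by −0.99 ± 0.18 SE at the brightest (adjusted p = 0.0359) and by −0.84 at both others. All 3 were of the kind whose probes also match other transcripts (_x_at), while another (_s_at) had a change of −0.18. Kcns2, a modulatory potassium channel subunit, fell by 0.65 (−0.65 ± 0.13 SE, adjusted p = 0.0461). Bace1, the beta-secretase that cleaves the amyloid precursor, had a change of −0.69 ± 0.14 SE (adjusted p = 0.0430), with other probe sets at −0.49, 0.10 and 0.53. Capns1, the shared small subunit of calpains, rose by 0.92 ± 0.18 SE (adjusted p = 0.0410).

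**Figure D4:**
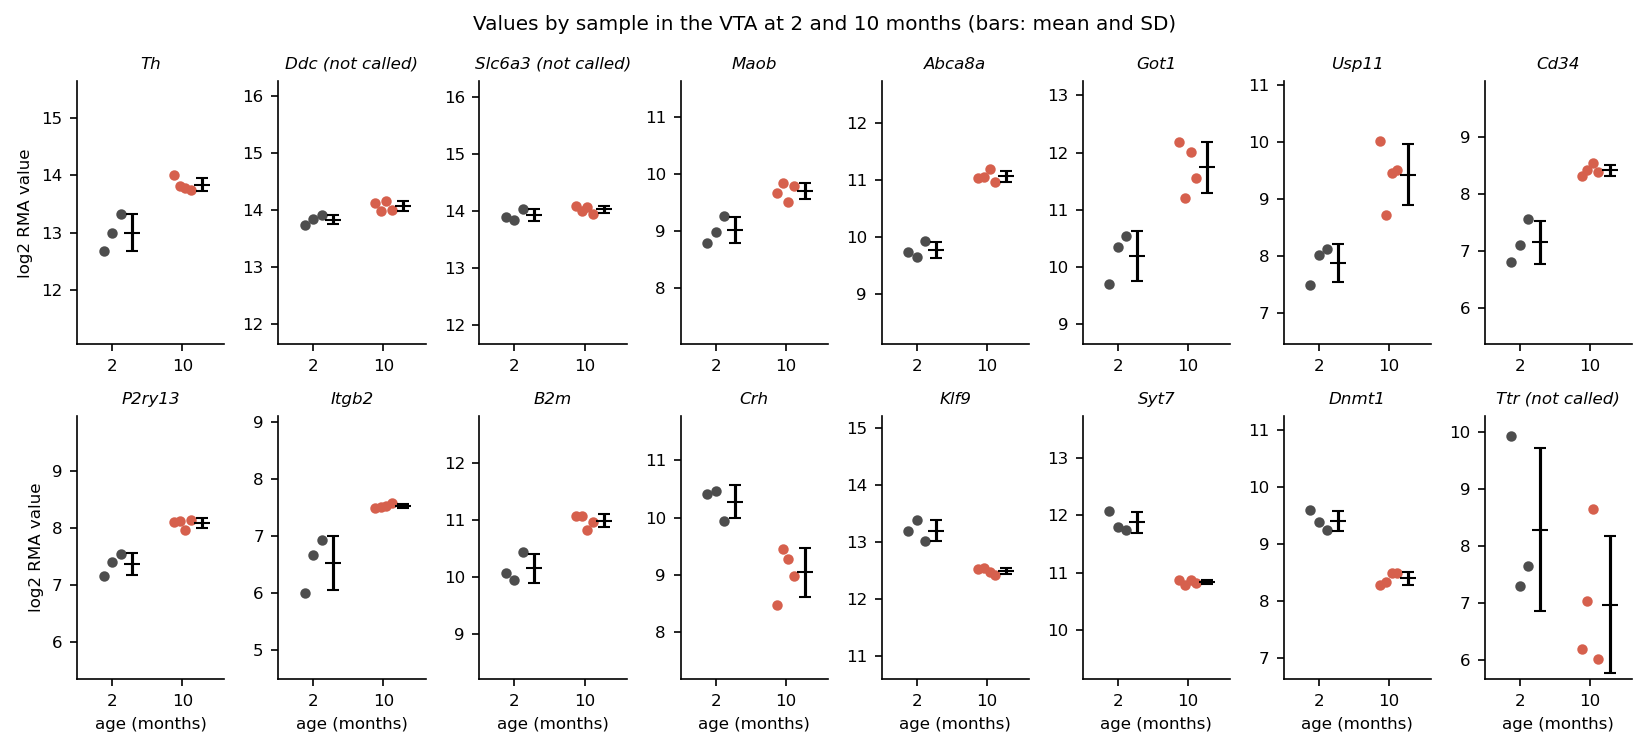
Log2 RMA values of 16 genes in each sample at 2 months (n = 3, arrays 3 and 4 averaged) and 10 months (n = 4), with the mean and SD beside the points and every axis spanning the same log2 range. The 13 called genes and Ddc show no overlap between the ages, whereas Slc6a3 and Ttr overlap.

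Genes of the nucleus and of the cell cycle moved both ways. Dnmt1, the maintenance DNA methyltransferase, lay at 9.59, 9.38 and 9.25 and then at 8.27, 8.33, 8.49 and 8.49 (−1.01 ± 0.12 SE, adjusted p = 0.0216), with another probe set called at −0.96 and one not called at −0.33. Dnmt1 was the 1 called of 40 chromatin genes, and both of its called probe sets were _x_at. Fzr1, which switches on the anaphase-promoting complex, rose by 1.40 ± 0.24 SE (adjusted p = 0.0317, −0.12 with the 3′ minus 5′ covariate) and Mcm6, a subunit of the replicative helicase, by 1.07 ± 0.17 SE (adjusted p = 0.0297), while cyclin E1 (Ccne1) fell by 0.61 (−0.61 ± 0.12 SE, adjusted p = 0.0420). Mcm6 had another probe set at −0.42. These 3 were the called genes of 37 in the cell cycle, whose median was −0.12.

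Gstm5, a glutathione transferase, rose by 0.98 ± 0.21 SE (adjusted p = 0.0489) and Cat, the peroxide-degrading catalase, fell by 0.70 (−0.70 ± 0.15 SE, adjusted p = 0.0492). They were the 2 called of 26 antioxidant genes, against 1.0% of all genes called higher and 0.484% lower. Another probe set of Cat had a change of 0.23. Fgf1 (0.75 ± 0.16 SE, adjusted p = 0.0492) and Manf (0.73 ± 0.16 SE, adjusted p = 0.0496), both trophic to midbrain neurons, were the 2 called of 25 neurotrophic factors and receptors (8%, against 1.0% of all genes). Other probe sets of Fgf1 changed by −0.10 and 0.04. The mitochondrial thymidine kinase Tk2 (0.71 ± 0.14 SE, adjusted p = 0.0426) and Dpyd, which degrades pyrimidines (0.89 ± 0.16 SE, adjusted p = 0.0349), were the 2 called of 29 in pyrimidine metabolism (6.9%, against 1.0% of all genes). The co-chaperone Dnajb5 fell by 0.91 (−0.91 ± 0.17 SE, adjusted p = 0.0368) as the 1 called of 26 chaperones, with other probe sets at 0.25 and −0.16.

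No gene was called among 48 ribosomal proteins (median 0.04), 42 splicing factors (−0.11), 49 axon guidance genes (−0.07), 34 glutamate and GABA receptors (0.01), 23 sodium, calcium and HCN channels (−0.09) or 22 protocadherins of the beta cluster (0.00).

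The remaining genes of largest change belong to none of the lists. A530053G22Rik, a gene named by clone, had the largest rise, from 4.04, 3.82 and 4.03 to 5.61, 6.14, 5.55 and 5.63 (1.77 ± 0.21 SE, 3.41-fold, adjusted p = 0.0204). Behind it and the genes above came Wdfy1, an adaptor of endosomes, with a change of 1.28, Rnf5, a ubiquitin ligase of the endoplasmic reticulum, with 1.27, the phosphatase subunit Ppp2r2b with 1.22, Rpn2, a subunit of the enzyme that attaches sugars to new proteins, with 1.21, Plekhb2 with 1.21, the RNA helicase Ddx56 with 1.20 and the sorting nexin Snx32 with 1.19 (adjusted p of 0.0263 to 0.0470). None overlapped between the ages, which was a condition for being named among the largest changes.

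The largest fall was that of E130308A19Rik (−1.45 ± 0.31 SE, adjusted p = 0.0492), whose other probe sets, none called, changed by −0.43, −0.15, −0.14 and 0.21. 9630013A20Rik followed with −1.29 at its brightest probe set and −1.80 at a second called one. Then came the nuclear receptor corepressor Lcor with −1.20 (other probe sets at −0.28, −0.03 and 0.12), and Ccdc177 and the forkhead factor Foxq1 with −1.10 each. The actin-severing protein gelsolin (Gsn) had a change of −1.09 at its brightest probe set and of −1.18 at a second called one, but of −0.14 at a plain _at probe set. B3galt6, which builds the linker of proteoglycans, had a change of −1.09 and another probe set at 0.62. Ttc13 changed by −1.09 (other probe sets at −0.49 and 0.08), and the TGF-beta-binding vasorin (Vasn) and Ankrd24 by −1.07 each. Zic1, a zinc finger factor of dorsal neural tissue, changed by −1.06 (0.20 with the 3′ minus 5′ covariate). After E130308A19Rik the adjusted p at the brightest probe sets ran from 0.0228 to 0.0489. None of these genes overlapped between the ages, again by the way they were chosen.

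The direction of the calls differed with the kind of probe set. Names that end in _x_at mark probe sets with probes that also match other transcripts, and 51 of 2441 were called lower and 11 higher, so that 82.3% of their calls were falls. Names that end in _a_at mark probe sets that read several transcripts of 1 gene, and 26 of 4426 were called lower and 110 higher, so that 19.1% of their calls were falls. Plain _at probe sets lay between, with 141 lower and 230 higher of 36082. Of the 15 genes of largest fall, Lcor, Foxq1, Gsn, Ttc13, Vasn, Ankrd24, Dnmt1 and Marcksl1 were read by _x_at or _s_at probe sets (the latter match transcripts of several genes), and of the 15 of largest rise Prelp alone. When such probe sets were left out before the brightest was chosen, an alternative added after the data had been seen, 236 genes were called higher and 56 lower.

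Calls also ran unevenly along the numbering of the probe sets, which follows how the array was designed. Among numbers 1435000 to 1444999, 98 probe sets were called lower and 15 higher of 10000, with a median change of −0.07. Among numbers 1415670 to 1424999, 23 were called lower and 147 higher of 9305, with a median of 0.05. The part of probe design in the direction of the calls was not tested.

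Further probe sets of the called genes mostly did not follow the brightest one. For the 182 genes called higher, 84 had other probe sets with a mean above the lower quartile, 125 in all, and their median change was 0.00, with 63 above 0 and 4 called. For the 88 called lower, 67 had other probe sets, 138 in all, with a median change of −0.01, 71 below 0 and 6 called. All 10 of these calls had the direction of the brightest probe set. They belonged to B2m, Babam2, Ctsz and Ppt1 among the genes called higher and to Dnmt1, Gsn, Irak1, Marcksl1 and Nedd4l among those called lower. Those of Dnmt1, Gsn, Irak1 and Marcksl1 were _x_at probe sets, a kind with 82.3% of its calls lower. Their shared direction is thus not independent of the kind of probe set. Of all probe sets tested 1.36% were called.

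**Figure D5:**
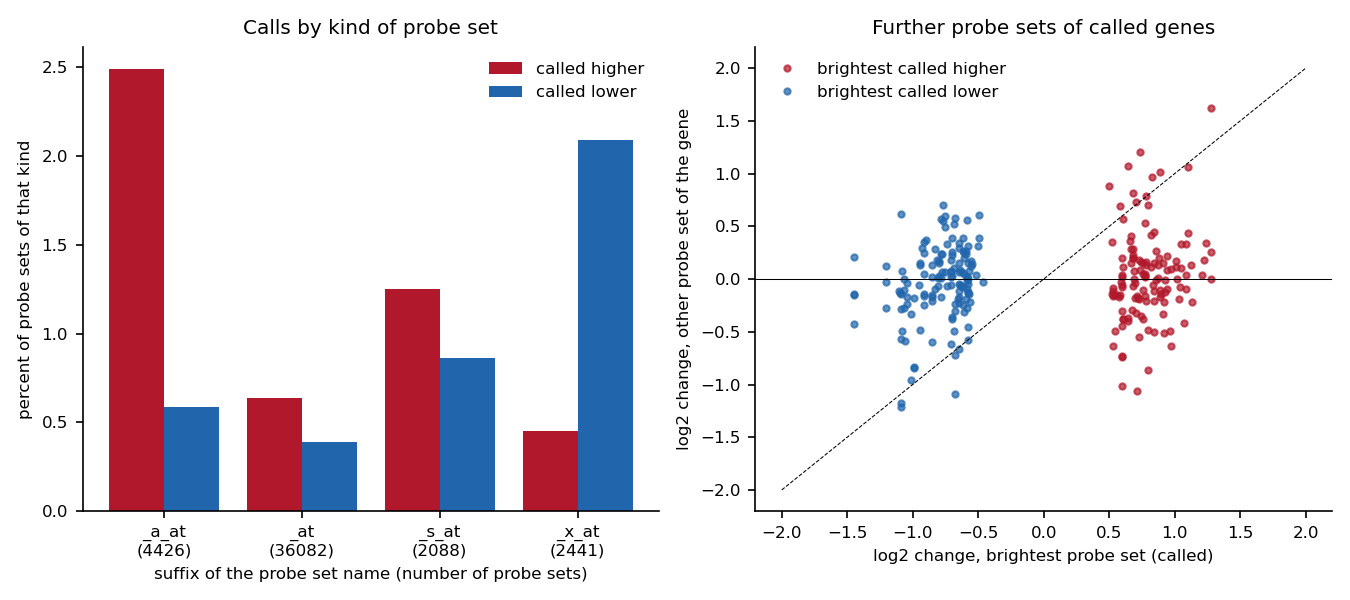
Left, percent of probe sets called higher (red) or lower (blue) at 10 months for each suffix of the probe set name; _x_at probe sets have 2.09% lower against 0.451% higher. Right, log2 change of further probe sets of each called gene against that of its brightest one, with the dashed line marking equal changes; the further probe sets centre near 0.

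The change was not shown to be unequal between the earlier and the later interval. No probe set was called for a difference between the change from 2 to 10 and that from 10 to 18 months (0%, adjusted p by limma at least 0.165), while 2463 had an unadjusted p under 0.05. With the 12 arrays kept separate 2 were called, Foxp1 (−1.50) and Mid1 (−1.60), named after their values were seen. The mean of Th was 13, 13.84 and 13.85 at 2, 10 and 18 months, that of Abca8a 9.78, 11.1 and 11.4, that of Got1 10.2, 11.7 and 12.2, that of B2m 10.15, 10.98 and 11.29 and that of Crh 10.3, 9.04 and 9.32. None of the genes called between 2 and 10 months was called between 10 and 18 months, a comparison that shares the 10 months samples. Of all probe sets tested there, 1 had an adjusted p under 0.05 by limma, and 2280 had an unadjusted p under 0.05. With so few calls among all probe sets, the lack of calls among these genes does not show that they stopped changing.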

How the data were processed

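RNA from the VTA of wild type C57BL/6 mice (labelled C57) was measured on 12 Affymetrix arrays, 4 for each age, with 5 mice pooled per array. RMA was applied by the authors, who deposited log2 signals for every probe set, and limma 3.4.5 appears in the notes on processing that the submitters gave. Of 45101 probe sets, 64 controls were left out and 45037 tested. The annotation of the array named 1 gene for 34945, several for 932 and none for 9160, and each gene was read from its brightest probe set over all samples.

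One limma model (version 3.58.1, R 4.3.3, lmFit and eBayes) held all 3 ages, with the 2 months arrays 3 and 4 averaged. Benjamini-Hochberg adjustment ran over all 45037 probe sets. Averaging before the fit gives their mean the weight of 1 array. A probe set was called at an adjusted p under 0.05 and a change above 1.3-fold. RMA sets all arrays to 1 distribution, so a shift shared by most genes is removed, and it compresses changes at low and very high signal. The number of arrays limits the precision. The limma p-values set a change against a spread between pools, estimated over all 3 ages and drawn towards a value shared by all probe sets. That spread may be in part technical.

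Named were the 15 largest rises and 15 largest falls among called genes without overlap, the called members of the lists described and 16 defining genes. The gene lists and the comparison were chosen with earlier results of these data known, and lists are described by counts and medians without a set test. Control probe sets were compared by exact permutation of samples. The fit was tested on simulated data. The alternatives were the 12 arrays kept separate, the replicate number as a block, a covariate for the 3′ minus 5′ signal, median centring, a filter on low values, array weights, a trended robust prior, the 2 younger ages alone, no fold threshold, a test against a 1.3-fold change, and leaving out each array.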

Additional observations from a re-analysis of the deposited data

Results flagged for a closer look

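Of 84 values checked for a sample far from the other 3 at 10 months, 3 stood out, and chance alone sets about 1 in 20 such groups apart. A530053G22Rik was at 6.145 on the 10 months array 2 and at 5.55 to 5.63 on the others. Cd59a was at 9.519 on array 1 and at 9.33 to 9.34 on the others. Kcns2 was at 8.397 on array 3 and at 8.59 to 8.61 on the others. Each of these values lay on the side of the other 10 months arrays that faces away from the 2 months samples.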

How the results depend on the processing

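The called probe sets changed in number with nearly every choice. Keeping the 12 arrays separate gave 977 (590 higher, 387 lower) and 2 for unequal change, array weights 2944 (1578 higher, 1366 lower), a trended robust prior 217 (133 higher, 84 lower), a test against a 1.3-fold change 1 (1 higher, 0 lower), the 2 younger ages alone 0 (0 higher, 0 lower) and the 3′ minus 5′ covariate 0 (0 higher, 0 lower). Leaving out single arrays gave 1 to 1256 in all, 1 to 629 higher and 0 to 627 lower, with 53 to 159 when an 18 months array was left out, an alternative added after the data had been seen. Median centring gave 541 higher and 162 lower, so that the share of rises grew. The cause was not tested.

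With the replicate number as a replicate block on the 12 arrays, 3 probe sets were called (2 higher, 1 lower). The numbers did not pair the samples: deviations from the group means correlated at −0.253, −0.464, −0.424 and 0.431 for replicates 1 to 4, and 1 of 4 arrays of each age was most like its own number at the other.

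Signs turned with the 3′ minus 5′ covariate for Usp11 (−0.23), Fzr1 (−0.12), Zic1 (0.20), Slc18a2 (−0.14), Cx3cr1 (−0.49), Gad1 (−0.36) and Slc17a6 (−0.61). List medians moved both ways with it, as for the malate-aspartate shuttle (0.29 to 0.0018) and microglia (0.50 to 0.73). The covariate did not overlap between 2 and 10 months, so these values cannot set age apart from it. Crhr1 turned to 0.035 under median centring and 0.016 with array weights, and Gfap to −0.089 with array weights. Over the single arrays left out, Crhr1 ran from −0.074 to 0.098, Gfap from −0.31 to 0.35, Cx3cr1 from −0.041 to 0.26 and Gad1 from −0.0051 to 0.22. All 69 named called genes stayed called with the 12 arrays separate and with array weights, and 35 with the trended robust prior. None did with the 3′ minus 5′ covariate or with the 2 younger ages alone. The replicate block and the test against a 1.3-fold change kept 1 each, as did leaving out the 2 months array 1 or 2 or the 10 months array 1 or 4. Leaving out an 18 months array kept 11 to 26. The control probe sets kept their direction and their side of the threshold with the 12 arrays separate.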
